A study of Mus musculus with 47 samples.

Results

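The expression of 9 genes of the glucocorticoid receptor system was examined in brainstem and hippocampus of mice carrying a human transgene and of wild-type mice. They are the receptor genes Nr3c1 and Nr3c2, the receptor targets Fkbp5, Sgk1, Tsc22d3, Cdkn1a, Plin4 and Arrdc2, and Fam107a, a stress-responsive gene that is read here with the targets. Each symbol matched 1 Ensembl gene in both count tables, out of 33139 genes in the brainstem table and 31751 in the hippocampus table. The 9 genes were selected on earlier results of these same counts, among them the agreement between the regions, so that agreement is given as a description without a test. Male C57BL/6 mice were either homozygous for the transgene under a Thy1 promoter that is active in neurons of the central nervous system (TG), or wild-type (WT) from the same outcross, kept as a parallel colony and therefore not littermates of the TG mice. Both genotypes received a standard diet (SD) or a high-fat diet (HFD) from shortly after weaning to about a year of age. Poly(A)-selected RNA was sequenced from the medulla part of the brainstem and from whole hippocampus. Each region held the groups WT_SD, WT_HFD, TG_SD and TG_HFD with 6 libraries each, except for brainstem WT_SD with 5, which gave 23 brainstem and 24 hippocampus libraries.

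Glucocorticoids reach the brain from the adrenal gland with a daily rhythm and in surges after stress. In the cell they bind 2 receptors, the high-affinity mineralocorticoid receptor, encoded by Nr3c2, and the lower-affinity glucocorticoid receptor, encoded by Nr3c1. The hippocampus is known for its high content of the mineralocorticoid receptor. Bound receptors move to the nucleus, attach to palindromic DNA elements and raise or lower the transcription of nearby genes. Fkbp5 encodes a co-chaperone that lowers the affinity of the receptor for the hormone and closes a feedback loop. Sgk1 encodes a kinase that acts on ion channels and transporters, Tsc22d3 encodes the anti-inflammatory protein GILZ, Cdkn1a encodes the cell cycle inhibitor p21, Plin4 encodes a lipid droplet coat protein and Arrdc2 an arrestin-domain protein. Fam107a encodes an actin-binding protein that is abundant in astrocytes.

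The receptor's DNA element was looked up in the RefSeq promoter windows of 8 of the genes (Nr3c1 was not searched). Only some members of the set varied together between libraries, and a link of the element to that variation was not tested. Each window runs from 250 bases before to 50 bases after a transcription start, and 32851 windows were searched on both strands. The full palindrome, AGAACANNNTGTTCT, occurred in 3 windows or 0.00913% of them, and 1 of the 3 was 1 of 6 windows of Sgk1. A shorter core, GNACANNNTGTNC, which also lies within the full palindrome, occurred in 0.475% of the windows. It was found in the same Sgk1 window and in 2 overlapping windows of Fam107a, out of 3. The single arm AGAACA was present in 19.0% of the windows, including 3 of 6 for Sgk1, 2 of 3 for Fam107a and 1 of 3 for Tsc22d3. The windows of Nr3c2, Fkbp5, Cdkn1a, Plin4 and Arrdc2 held none of these letters, which says nothing of elements elsewhere in those genes. The 250 bases before the start are shown for the 2 genes with a palindrome, in GRCm38.p6, with the palindrome in capitals. The Sgk1 stretch lies on chromosome 10 at chr10:21993640-21993889, plus strand, with the match 189 to 175 bases before the start, and the Fam107a stretch at chr14:8309780-8310029, minus strand, with the core match 118 to 106 bases before the start.
Sgk1: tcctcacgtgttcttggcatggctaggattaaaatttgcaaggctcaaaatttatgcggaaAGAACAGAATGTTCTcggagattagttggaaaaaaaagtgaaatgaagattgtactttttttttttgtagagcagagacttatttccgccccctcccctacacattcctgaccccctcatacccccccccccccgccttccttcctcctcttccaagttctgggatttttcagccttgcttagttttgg
Fam107a: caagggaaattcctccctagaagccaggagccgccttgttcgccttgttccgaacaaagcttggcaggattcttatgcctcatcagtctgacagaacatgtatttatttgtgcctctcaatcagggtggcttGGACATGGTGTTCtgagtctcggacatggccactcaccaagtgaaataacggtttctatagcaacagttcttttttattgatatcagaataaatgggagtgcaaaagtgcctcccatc

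The libraries held between 10020784 and 15078812 counts in brainstem and between 11945971 and 17328447 in hippocampus. Region markers were as labelled, with Neurod6 of hippocampal neurons at 180 to 252 CPM (counts scaled to library size) in hippocampus and 3.10 to 6.15 in brainstem, and the glycine transporter gene Slc6a5 at 253 to 474 CPM in brainstem and at most 0.505 in hippocampus. Choroid plexus markers, which belong to tissue next to both regions, summed to 12.5 to 3008 CPM in brainstem and 37.9 to 314 CPM in hippocampus. As these are bulk samples, fewer cells of a type and less RNA per cell cannot be told apart in any value below. Libraries of a group came from separate mice, but the labels do not say whether an equal number in both regions marks the same mouse.

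The mineralocorticoid receptor gene Nr3c2 and Fam107a set the regions apart, whereas the glucocorticoid receptor gene Nr3c1 differed little. Expressed per kilobase of exon (RPKM), Fam107a had the highest level of the 9 genes in hippocampus, 88.8 ± 15.5 (SD, n = 24), ahead of Nr3c2 with 32.6 ± 2.55. Sgk1, Tsc22d3 and Nr3c1 followed in hippocampus at 11.9 ± 1.41, 11.3 ± 1.41 and 11.0 ± 0.812 RPKM, and these neighbours did not differ by more than their spread. Fkbp5 with 6.50 ± 0.493 RPKM, Arrdc2 with 1.68 ± 0.249, Cdkn1a with 0.866 ± 0.159 and Plin4 with 0.459 ± 0.191 closed the order in hippocampus. In brainstem Tsc22d3 came first with 34.5 ± 3.44 RPKM (SD, n = 23), before Fam107a with 27.7 ± 4.88, Sgk1 with 12.2 ± 4.26 and Nr3c1 with 9.97 ± 0.820. Sgk1 and Nr3c1 were not separated by more than their spread there, nor were Fkbp5 with 2.08 ± 0.222 and Cdkn1a with 1.96 ± 0.196. The plot of levels per exon length shows both orders.

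**Figure D1:**
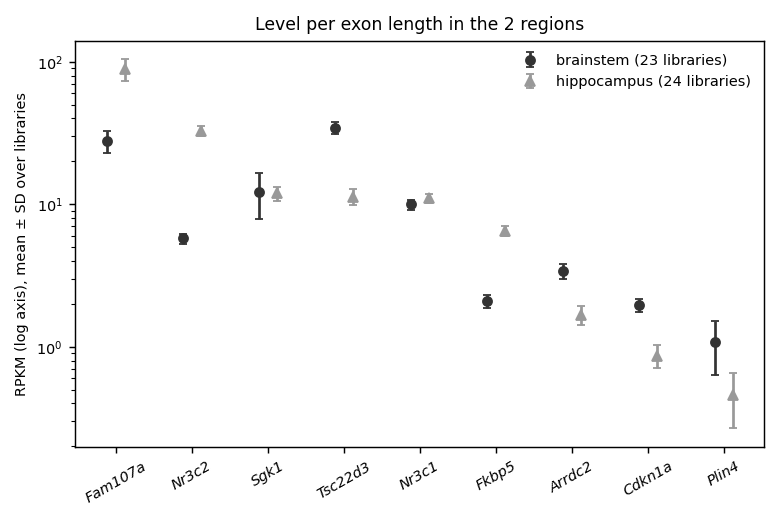
Level of each of the 9 genes in RPKM, the CPM per kilobase of exon (log axis), as mean ± SD over the 23 brainstem libraries (circles) and the 24 hippocampus libraries (triangles). Nr3c2, Fkbp5 and Fam107a sat higher in hippocampus, Tsc22d3, Cdkn1a, Plin4 and Arrdc2 higher in brainstem, and Nr3c1 and Sgk1 lay at nearly the same level.

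Between the regions, 7 of the 9 genes passed an adjusted p of at most 0.05 and a log2 fold change of at least 0.3 in edgeR's quasi-likelihood test. This count stands beside 60.2% of all 13458 genes tested, so it is near the background of 2 such different tissues. The test took libraries of the 2 regions as independent, although the study describes taking both regions from 6 animals per group. The mineralocorticoid receptor gene Nr3c2 differed most, with 214 ± 17.9 CPM in hippocampus and 36.7 ± 3.02 in brainstem, which came to 2.54 ± 0.04 on the log2 scale (SE, adjusted p = 2.15e-47). The glucocorticoid receptor gene Nr3c1 was much more even, 85.7 ± 6.56 against 75.6 ± 6.20 CPM, and its log2 fold change of 0.18 had an adjusted p of 1.57e-06 but stayed under the fold threshold. Fam107a and the co-chaperone gene Fkbp5 were higher in hippocampus, by log2 fold changes of 1.72 and 1.69. Tsc22d3, Plin4, Cdkn1a and Arrdc2 were higher in brainstem, with log2 fold changes of hippocampus against brainstem of -1.57, -1.18, -1.14 and -0.97. Sgk1 did not pass (59.1 ± 7.14 against 59.2 ± 20.5 CPM, adjusted p = 0.955). For Nr3c2, Fkbp5, Tsc22d3, Fam107a, Cdkn1a and Arrdc2 no brainstem library overlapped a hippocampus library, whereas the libraries overlapped for Nr3c1, Sgk1 and Plin4. The share of all genes without such overlap was not counted, so this does not set these members apart from other genes. Oligodendrocyte markers, 6 of 6 of which were higher in brainstem, summed to 12505 to 21054 CPM there and to 2926 to 4625 CPM in hippocampus, and their part in the region differences was not tested.

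The receptor genes were among the steadier genes in brainstem and nearer the middle in hippocampus. The SD of log2 CPM within groups was 0.110 for Nr3c1 and 0.101 for Nr3c2 in brainstem, where the median gene had 0.161 and 18.1% and 13.2% of the genes had a lower SD. In hippocampus it was 0.106 and 0.122 beside a median of 0.136, with 28.9% and 40.6% of the genes lower. In brainstem Nr3c2 was at 39.6, 40.7, 35.8, 39.9 and 39.4 CPM in WT_SD replicates 1, 4, 6, 7 and 8. Its lowest, median and highest values were 30.4, 34.7 and 38.1 CPM in WT_HFD, 34.0, 36.1 and 39.7 in TG_SD and 36.6, 38.9 and 44.5 in TG_HFD. The ranges of the 4 groups overlapped, with the WT_HFD group lowest and TG_HFD replicate 3 highest. In hippocampus Nr3c2 ran from 172 to 237 CPM with group means between 208 and 214. The range of Nr3c1 was 65.2 to 95.7 CPM in brainstem and 69.9 to 97.3 CPM in hippocampus, and its group means lay at 72.4 to 80.6 and 80.4 to 86.4 CPM.

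Sgk1 and Plin4 were far more variable. In brainstem the within-group SD of Sgk1 was 0.500 and that of Plin4 0.516 on the log2 scale, and 99.3% of the genes tested had a lower SD than either. Sgk1 in brainstem was at 65.9, 65.6, 66.3, 85.0 and 49.8 CPM in WT_SD replicates 1, 4, 6, 7 and 8. Its lowest, median and highest values were 36.1, 49.9 and 84.8 CPM in WT_HFD, 30.9, 58.7 and 95.9 in TG_SD and 42.2, 52.7 and 112 in TG_HFD. The TG_SD group thus spanned most of the range of all groups, and 1 library, TG_HFD replicate 3, stood above all others. In hippocampus the same gene was much tighter, with lowest, median and highest values of 50.3, 59.8 and 70.2 CPM in WT_SD, 51.0, 52.3 and 53.8 in WT_HFD, 49.2, 60.5 and 74.9 in TG_SD and 54.6, 60.8 and 65.6 in TG_HFD. The 6 WT_HFD libraries there lay below all 6 TG_HFD libraries and inside the range of TG_SD. The share of all genes whose groups separate in this way was not counted. Sgk1 was not called between these groups (log2 fold change 0.13, edgeR adjusted p = 0.640).

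Plin4, whose product coats lipid droplets, was weakly expressed, with a mean of 77.3 counts per library in brainstem and 38.0 in hippocampus. In brainstem WT_SD it was at 5.86, 4.48, 8.03, 6.52 and 4.45 CPM in replicates 1, 4, 6, 7 and 8. Its lowest, median and highest values were 4.17, 4.68 and 5.84 CPM in WT_HFD, 2.71, 6.34 and 12.3 in TG_SD and 4.70, 6.15 and 13.5 in TG_HFD. The 2 TG groups were wider than the 2 WT groups, and all ranges overlapped. In hippocampus, where Plin4 was under the mean count of 50 required for testing, it ran from 1.05 to 5.47 CPM. The kinase inhibitor gene Cdkn1a was likewise below that limit in hippocampus (2.14 to 4.38 CPM) and ran from 5.57 to 8.38 CPM in brainstem. Arrdc2 spanned 8.67 to 13.5 CPM in brainstem and 4.36 to 7.10 CPM in hippocampus.

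The co-chaperone gene Fkbp5 spanned 14.9 to 23.2 CPM in brainstem and 50.9 to 66.8 CPM in hippocampus, with group means of 18.8 to 20.3 and 60.6 to 62.8. Tsc22d3 in brainstem was at 142, 167, 196, 140 and 144 CPM in WT_SD replicates 1, 4, 6, 7 and 8. It had lowest, median and highest values of 137, 147 and 158 CPM in WT_HFD, 129, 147 and 179 in TG_SD and 133, 147 and 154 in TG_HFD. The 3 groups had equal medians, slightly above the median of 144 in WT_SD. In hippocampus the values of Tsc22d3 were 43.6, 46.9 and 61.2 CPM in WT_SD, 42.1, 46.9 and 54.2 in WT_HFD, 36.1, 50.3 and 56.6 in TG_SD and 48.8, 51.7 and 61.4 in TG_HFD.

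Fam107a was at 107, 106, 169, 103 and 82.1 CPM in brainstem WT_SD replicates 1, 4, 6, 7 and 8. Its lowest, median and highest values in brainstem were 94.3, 103 and 117 CPM in WT_HFD, 96.1, 113 and 136 in TG_SD and 86.7, 94.8 and 120 in TG_HFD. WT_SD replicate 6 lay above every other brainstem library. In hippocampus its values were 291, 311 and 536 CPM in WT_SD, 283, 319 and 366 in WT_HFD, 332, 360 and 449 in TG_SD and 293, 307 and 421 in TG_HFD. Again WT_SD replicate 6 was the highest library of the region, and all 4 groups overlapped.

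**Figure D2:**
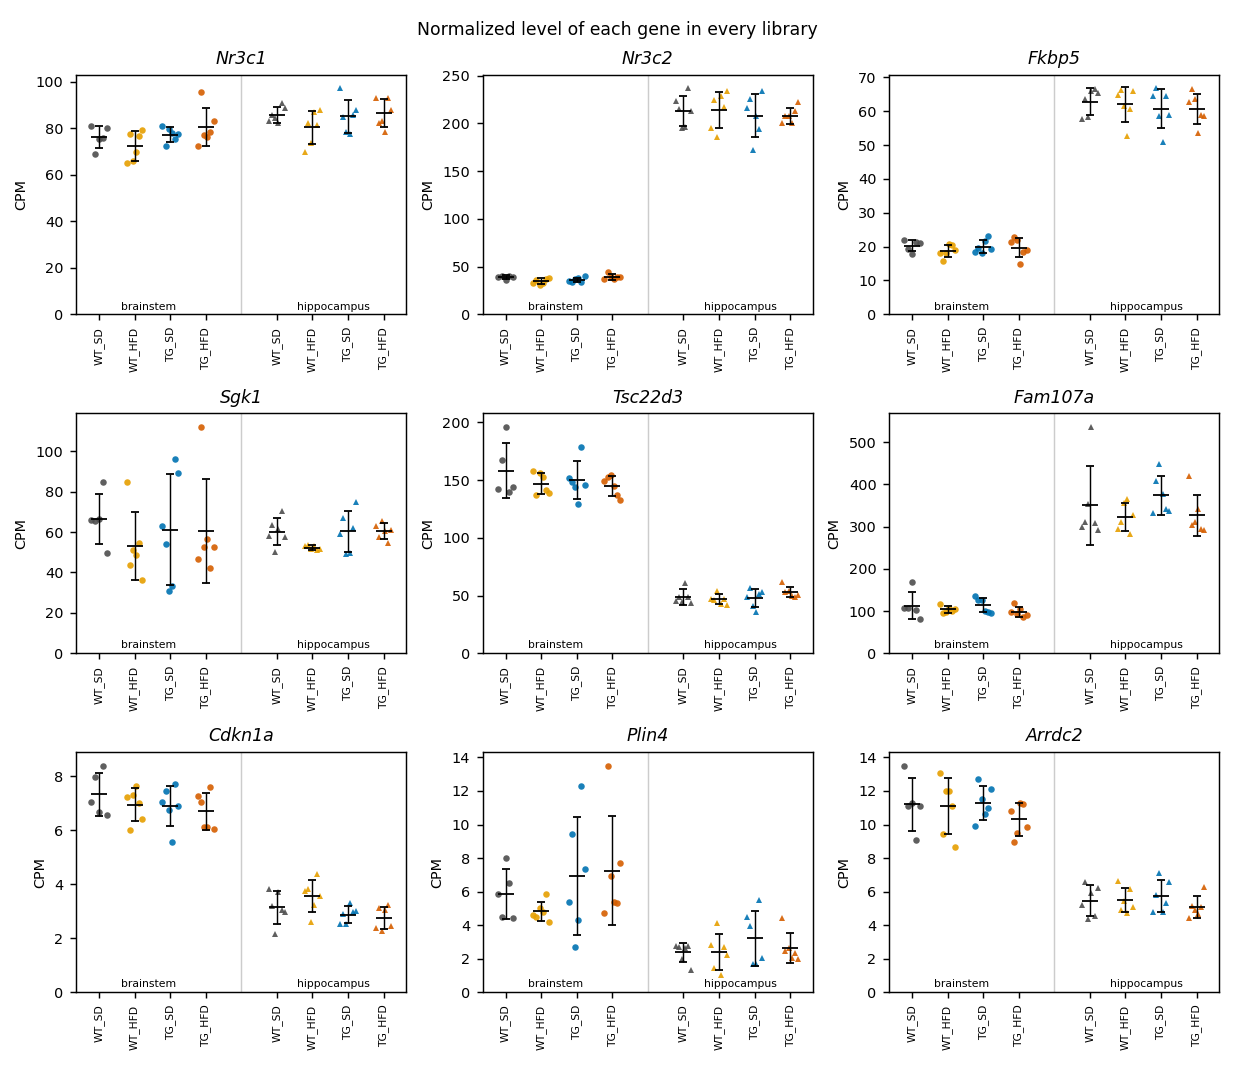
Level of the 9 genes in CPM in every library of brainstem (circles, left) and hippocampus (triangles, right), by genotype and diet group. Black bars give the mean ± SD of each group of 5 or 6 libraries. The groups of a region overlapped for almost all genes, and single libraries reached 169 CPM (brainstem) and 536 CPM (hippocampus) for Fam107a and 112 CPM for Sgk1 in brainstem.

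The question put to these genes was whether the transgene, the diet or both shifted the glucocorticoid system. None of them was called in any of the 10 genotype and diet contrasts (edgeR's quasi-likelihood test, 4 surrogate variables, Benjamini-Hochberg adjustment over all genes). All 9 were tested in brainstem and 7 in hippocampus, among 13340 and 13272 genes. Of all genes, 0.142% were called in brainstem for TG_SD/WT_SD, 0.0525% for TG_HFD/WT_HFD, 0% for WT_HFD/WT_SD, 0.00750% for TG_HFD/TG_SD and 0.00750% for the interaction of genotype and diet. In hippocampus 0.0904% were called for TG_SD/WT_SD, 0.226% for TG_HFD/WT_HFD and 0% for each of WT_HFD/WT_SD, TG_HFD/TG_SD and the interaction. With backgrounds this low, no call among the members was the usual outcome for a set of 9 genes. DESeq2 called none of the members either.

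In brainstem the fitted log2 fold changes of TG_SD/WT_SD ran from -0.33 to 0.03 with a median of -0.09, and 7 of 9 were negative. These signs depend on the surrogate variables, as Fam107a went from -0.12 to 0.01 and Plin4 from -0.03 to 0.23 without them. With surrogate variables, 1 gene passed an unadjusted p of 0.05, Tsc22d3, at -0.14 ± 0.05 (SE, adjusted p = 0.282), while 10.5% of all genes did so. The estimate was -0.04 (edgeR adjusted p = 0.870) without WT_SD replicate 6, -0.07 without surrogate variables, and -0.20 (edgeR adjusted p = 0.0389), still under the fold threshold, without TG_SD replicate 7. For TG_HFD/WT_HFD in brainstem the median was 0.03, and the widest estimates belonged to Plin4, at 0.51 ± 0.29 (SE, adjusted p = 0.937), and Arrdc2, at 0.25 ± 0.10 (SE, adjusted p = 0.826). Of these, Arrdc2 had an unadjusted p of at most 0.05, as did 5.59% of all genes. Without surrogate variables the Arrdc2 estimate turned to -0.10, and 3 other members reached that level, namely Nr3c1 at 0.15 (edgeR adjusted p = 0.199), Nr3c2 at 0.17 (edgeR adjusted p = 0.161) and Plin4 at 0.59 (edgeR adjusted p = 0.234). With 4 surrogate variables the 2 receptor genes had been at 0.00 and 0.03. HFD against SD gave a median of -0.11 in brainstem of WT mice, with 8 of 9 negative and Sgk1 lowest at -0.33 ± 0.24 (SE, adjusted p = 0.962), and a median of 0.03 in TG mice. At an unadjusted p of 0.05, Tsc22d3 (-0.11) and Arrdc2 (-0.23) passed in WT mice and none in TG mice, where 5.43% and 6.91% of all genes did so. In WT mice the Arrdc2 estimate was -0.02 without surrogate variables and that of Tsc22d3 -0.04 without WT_SD replicate 6. The interaction was positive for 8 of 9 genes in brainstem, with a median of 0.15 and the highest values for Plin4 at 0.55 ± 0.38 and Sgk1 at 0.49 ± 0.36 (SE), and the lowest adjusted p was 0.993. Without surrogate variables Nr3c2 was the 1 member with an unadjusted p of at most 0.05 in WT mice (-0.17, edgeR adjusted p = 0.714) and in the interaction (0.28, edgeR adjusted p = 0.612). These contrasts share groups, so their signs are not independent of one another.

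In hippocampus the 7 tested genes ran from -0.09 to 0.06 for TG_SD/WT_SD, and none reached an unadjusted p of 0.05. For TG_HFD/WT_HFD the lowest estimate was that of Fam107a, -0.28 ± 0.09 (SE, adjusted p = 0.163), followed by Fkbp5 at -0.17 ± 0.07 (SE, adjusted p = 0.331). These were the 2 members with an unadjusted p of at most 0.05, a level reached by 11.3% of all genes. Of 6 astrocyte markers in the same fit none was called and 4 had an unadjusted p of at most 0.05, with a median log2 fold change of -0.16. The 6 endothelial markers had the same median of -0.16, with none called and 2 at that level. Medians were -0.06 for 6 oligodendrocyte and 0.03 for 5 neuronal markers, with none at that level. The part of any of these cell types in the Fam107a estimate was not tested. The Fam107a estimate rests on the surrogate variables, since without them it was 0.02 (edgeR adjusted p = 0.944) and the group means were 327 ± 48.9 and 323 ± 33.1 CPM (SD). Without surrogate variables Sgk1 was instead the member with the lowest p in this contrast, at 0.21 ± 0.08 (SE, edgeR adjusted p = 0.127). That fit called 515 of all genes in place of 30. HFD against SD in TG mice gave -0.18 ± 0.06 for Fam107a (SE, edgeR adjusted p = 0.518) and -0.19 without surrogate variables. In the same contrast 4 of 6 astrocyte markers (median -0.12) and 4 of 4 blood markers (median 0.42) had an unadjusted p of at most 0.05, a level reached by 7.08% of all genes. In WT mice Sgk1 had -0.16 ± 0.08 (SE, edgeR adjusted p = 0.789). The interaction for Fam107a was -0.29 ± 0.10 (SE, edgeR adjusted p = 0.670), and -0.08 without surrogate variables.

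**Figure D3:**
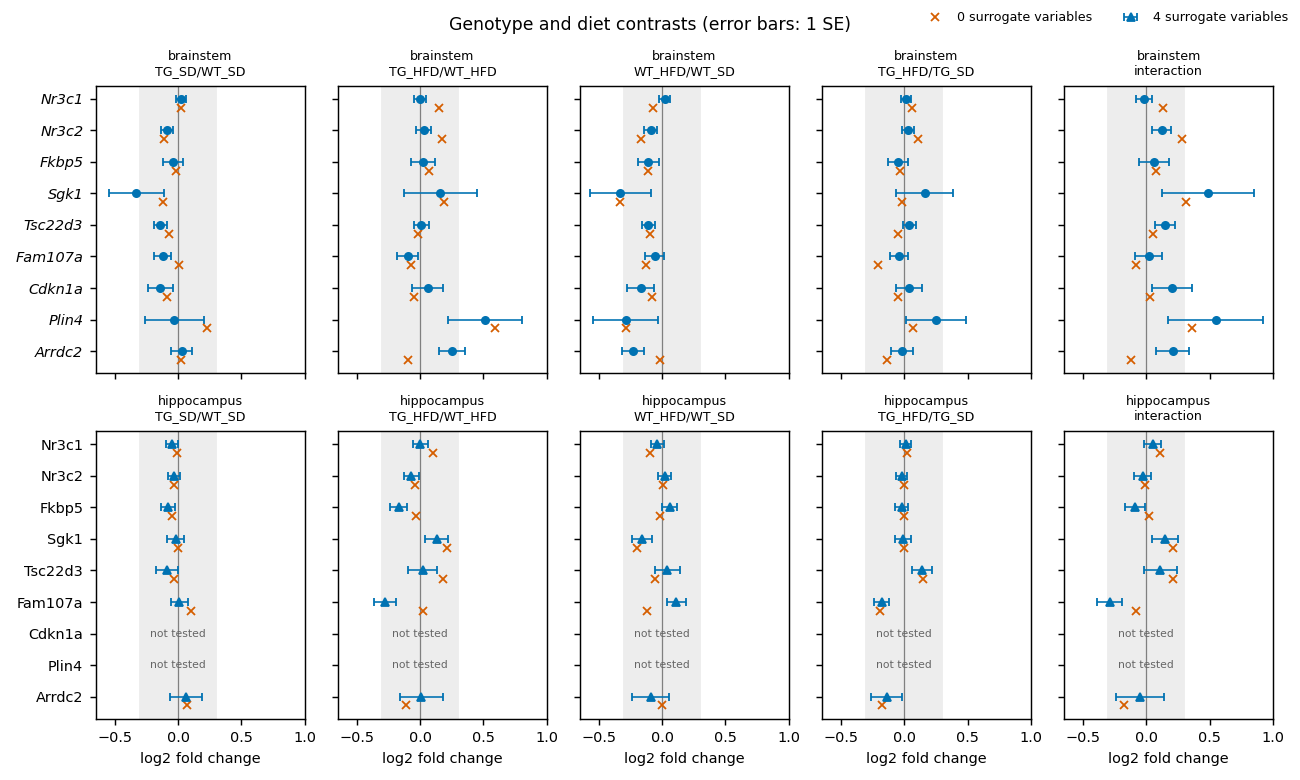
Log2 fold changes of the members in the 5 contrasts of each region (brainstem in the upper row, hippocampus in the lower row), with 4 surrogate variables (filled symbols, bars of 1 SE) and with 0 (crosses). The grey band marks changes smaller than 0.3, and Cdkn1a and Plin4 were not tested in hippocampus. Estimates outside the band belonged to Sgk1 and Plin4 in brainstem, with bars of 0.219 to 0.376, and the hippocampal Fam107a estimate moved from -0.28 to 0.02.

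Lists of other genes of the glucocorticoid system were counted in the same contrasts. Of 20 further responsive genes, 14 were tested in brainstem and 16 in hippocampus, and none was called in any of the 10 contrasts by edgeR. The highest number with an unadjusted p of at most 0.05 was 2, and the median log2 fold change of the list stayed between -0.08 and 0.07. None of 10 receptor chaperones, 10 coregulators, 4 genes of local steroid supply, 11 clock output genes, 5 stress peptide genes (4 in hippocampus) and 4 immediate early genes (5 in hippocampus) was called either. Between the regions, 9 of 15 responsive genes were higher in hippocampus and 3 lower, where 29.2% of all genes tested were higher and 31.0% lower. The clock gene Per1, itself a receptor target, had a log2 fold change of 1.22 (edgeR adjusted p = 8.80e-25), and Pdk4, a brake on glucose oxidation, one of -0.57 (edgeR adjusted p = 1.42e-13). Of the coregulators 8 of 10 were higher in hippocampus, and of the chaperones 6 of 10 were lower and 1 higher. With 60.2% of all genes called between the regions in either direction, these counts describe the lists. Whether any list departs from the shares of all genes that were higher or lower was not tested.

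The regions were then compared library by library, since 17 combinations of group and number occurred in both. For each gene the log2 CPM values were expressed as deviations from the group mean, and the correlation over the 17 pairs was taken. Over the 12619 genes tested in both regions the median Pearson's r was 0.20, with quartiles at -0.01 and 0.41. The 7 members tested in both had a median r of 0.57. These 17 points share neither library nor sequencing depth, but whether a pair is 1 mouse is not stated, and over all genes the equally numbered library ranked first among the 6 hippocampus libraries of its group in 6 of 17 cases, with an r above 0 in 16 of 17.

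Fam107a had the highest r of all 12619 genes, 0.95, with a Spearman's rho of 0.90. In WT_SD replicates 4, 6, 7 and 8 it was at 106, 169, 103 and 82.1 CPM in brainstem and at 312, 536, 309 and 291 CPM in hippocampus. In TG_SD replicates 5, 6, 7 and 8 the values were 126, 101, 98.0 and 96.1 CPM in brainstem and 449, 378, 342 and 336 in hippocampus, the same order in both. In TG_HFD replicates 3, 4, 6, 7 and 8 they were 120, 92.6, 105, 86.7 and 90.5 CPM in brainstem and 421, 304, 341, 295 and 293 in hippocampus, and in WT_HFD replicates 3, 4, 7 and 8 they were 97.2, 108, 101 and 104 against 294, 311, 283 and 327. The deviations had the same sign in 16 of 17 pairs and nearly the same size, for example 0.61 in both regions for WT_SD replicate 6 and 0.29 and 0.36 for TG_HFD replicate 3. Leaving out 1 pair at a time gave r between 0.89 and 0.98, and without those 2 pairs r was 0.84. Libraries of the same group with another number had an r near or below 0, which centring on the group mean itself pushes below 0.

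Among the members Sgk1 followed with r = 0.83 and rho = 0.83, and 0.277% of the genes reached that r. Its swings were several times wider in brainstem than in hippocampus. In TG_SD replicates 5, 6, 7 and 8 it was at 30.9, 33.3, 95.9 and 89.4 CPM in brainstem and at 49.2, 49.5, 62.2 and 74.9 CPM in hippocampus. The deviations of these libraries were -0.82, -0.71, 0.81 and 0.71 in brainstem and -0.24, -0.23, 0.10 and 0.37 in hippocampus. TG_HFD replicate 3, the highest brainstem library at 112 CPM, was at 63.0 CPM in hippocampus, within the range of its group.

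Tsc22d3 had an r of 0.75 and a rho of 0.73, reached by 1.34% of the genes, and Plin4 an r of 0.76 and a rho of 0.64. Tsc22d3 was highest in brainstem in WT_SD replicate 6, at 196 CPM. In hippocampus that number was at 61.2 CPM, next to TG_HFD replicate 3 with 61.4. TG_SD replicate 6 was lowest in both regions, at 129 and 36.1 CPM. Without WT_SD replicate 6 its r was 0.66. Plin4, whose hippocampal counts were low, peaked in TG_SD replicate 7 (12.3 CPM in brainstem, 5.47 in hippocampus) and TG_HFD replicate 3 (13.5 and 4.41 CPM), and without the former its r was 0.60. TG_SD replicate 7 and TG_HFD replicate 3 thus carried the highest values of both Sgk1 and Plin4 in brainstem, while WT_SD replicate 6 carried those of Fam107a and Tsc22d3 there.

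The receptor genes agreed less. Nr3c1 had an r of 0.57, reached by 9.30% of the genes, and Nr3c2 one of 0.46, reached by 19.4%. Fkbp5 had 0.51 and Arrdc2 0.46, while Cdkn1a, with few counts in hippocampus, had -0.13. For Nr3c1, Fkbp5 and Arrdc2 r fell to 0.24, 0.26 and 0.20 without the 2 pairs whose brainstem deviations were farthest from the median. Taking out the extremes of 1 region narrows its range, which can itself lower r. Leaving out 1 pair at a time gave 0.43 to 0.67 for Nr3c1, 0.28 to 0.78 for Fkbp5 and 0.31 to 0.59 for Arrdc2. With a correction for GC content r was 0.76 for Nr3c1 and 0.17 for Arrdc2.

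**Figure D4:**
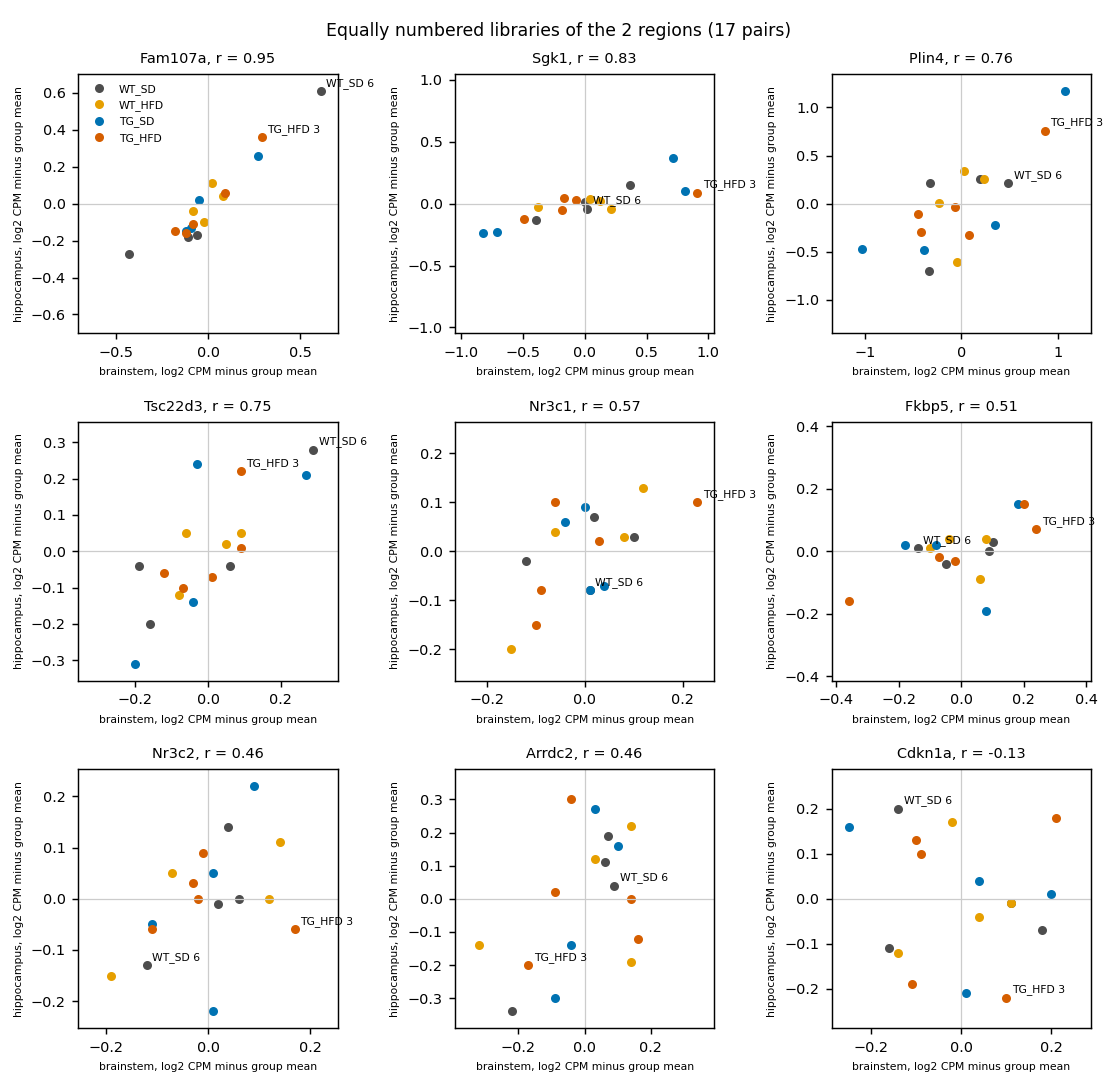
Deviation of log2 CPM from the group mean in brainstem (horizontal axis) and hippocampus (vertical axis) for each of 17 equally numbered libraries, with 1 panel per gene ordered by Pearson's r and colours for the 4 groups. The 17 points of Fam107a lie along a line through the origin (r = 0.95), those of Sgk1 along a flatter one (r = 0.83), and those of Cdkn1a show no such order (r = -0.13).

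**Figure D5:**
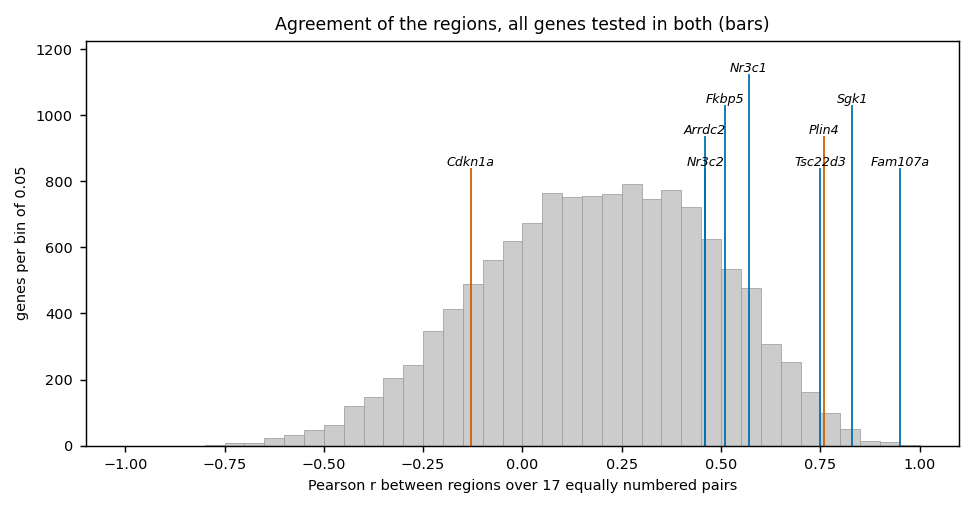
Number of genes per bin of 0.05 of Pearson's r between the regions over 17 pairs, for the 12619 genes tested in both (grey bars, median 0.20), with the 9 genes as vertical lines (blue where tested in both regions, orange where not). Fam107a lies at the right end at 0.95, Sgk1 at 0.83, and Cdkn1a at -0.13.

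Within a region the members did not move as 1 block. Over the libraries of brainstem, and again as deviations from group means, the receptor genes Nr3c1 and Nr3c2 had an r of 0.71, and in hippocampus 0.62. Sgk1 and Plin4 had an r of 0.76 in brainstem and 0.30 in hippocampus. Tsc22d3 varied with Sgk1 (0.46 in brainstem, 0.66 in hippocampus), with Plin4 (0.44 and 0.67) and with Fam107a (0.53 and 0.34). Fkbp5 varied with Tsc22d3 in hippocampus (0.59) and hardly in brainstem (0.01). Fam107a and Sgk1, the members tested in both regions with the highest agreement between them, had an r of 0.17 in brainstem and -0.12 in hippocampus. These values are over 23 and 24 libraries that share depth and tissue composition within each pair of genes, and they are descriptions.

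Markers of cell types moved with some of these genes. Fam107a had an r of -0.90 with the mean of 5 neuronal markers in brainstem and -0.61 in hippocampus, and of 0.33 and 0.81 with 6 astrocyte markers. In hippocampus it also had an r of 0.69 with blood markers, 0.61 with microglia, 0.51 with oligodendrocyte and 0.50 with endothelial markers, for which the values in brainstem were 0.13, 0.07, 0.11 and -0.07. The summed astrocyte markers spanned 1212 to 1840 CPM in brainstem and 1369 to 1923 CPM in hippocampus, and the summed neuronal markers 4121 to 4728 CPM and 4126 to 4769 CPM. Fam107a also had an r of -0.68 with the GC slope of the library in brainstem and of -0.17 in hippocampus, and its agreement between regions was 0.95 with a GC correction too. Choroid plexus markers had an r of 0.62 with Cdkn1a, 0.55 with Plin4, 0.52 with Fkbp5 and 0.48 with Sgk1 in brainstem, and of -0.31, -0.33, -0.01 and -0.09 in hippocampus. Oligodendrocyte markers had an r of -0.75 with Nr3c1 and -0.68 with Nr3c2 in brainstem, and of -0.05 and -0.27 in hippocampus. Other markers moved with the receptor genes in hippocampus too. There Nr3c2 had an r of -0.70 with blood, -0.63 with endothelial, -0.60 with mural cell and -0.55 with astrocyte markers. With the markers of hippocampus it had 0.70. Its values in brainstem were -0.31, -0.44, -0.10, -0.39 and 0.67. Endothelial markers had an r of -0.66 with Nr3c1 in brainstem and -0.42 in hippocampus. The part of tissue composition in the variation of the members was not tested.

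Among 12612 other genes, the 5 whose deviations were most like those of the 7 targets in both regions were Adipor2, Xdh, Ccn2, Ints12 and Ccdc137. Likeness was the lower of the mean r in brainstem and in hippocampus, with a median of -0.10 over all genes and a value of 0.18 at the percentile 99. Adipor2, which encodes an adiponectin receptor, had a mean r of 0.41 in brainstem and 0.40 in hippocampus, and its own agreement between the regions was 0.87. Xdh, encoding xanthine dehydrogenase, had 0.39 and 0.33, and Ccn2, a secreted matrix protein gene, 0.42 and 0.31. Ints12 had 0.37 and 0.31, and Ccdc137 0.31 and 0.36.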

How the data were processed

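Poly(A) RNA of brainstem (medulla) and whole hippocampus was sequenced as single-end reads. According to the submitters' processing notes and the study's methods, reads were checked with FastQC 0.11.9 and aligned with STAR 2.7.9a to an Ensembl mouse genome to which the sequence of the transgene had been added, and DESeq2 1.32.0 was used for expression analysis. The counting tool is not given in the sources used here. The authors deposited raw, whole-number counts per gene, 1 table per region, and left out a brainstem library of low RNA quality. The kit does not mark strand, so reads of a gene and an overlapping antisense gene cannot be told apart. Totals ranged from 10020784 to 15078812 counts in brainstem and from 11945971 to 17328447 in hippocampus, and 0 columns stayed unused. The identity and the counts of the transgene are not reported here.

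Symbols, exon lengths and GC content came from GENCODE vM21, another annotation than the one used for the reads, and 34400 of 35032 gene IDs matched. Genes whose counts averaged 50 or more over a region's libraries were tested with edgeR 4.0.16 (TMM, glmQLFit, glmQLFTest) in R 4.3.3. The model held the 4 groups and 4 surrogate variables from sva 3.50.0. The number of surrogate variables came from its be method. A gene was called if its p, adjusted over all genes tested by Benjamini-Hochberg, did not exceed 0.05 and its log2 fold change was 0.3 or more in size. The interaction is the diet effect in TG minus that in WT. The regions were compared in a joint model of all 47 libraries without surrogate variables, which took libraries of the 2 regions as independent. CPM values are TMM-normalized, and log2 CPM used a prior count of 2. RPKM divides CPM by the exon length of the gene. Agreement between the regions was computed over 17 equally numbered pairs. The named genes are the 9 members, the genes of a fixed list that were called, and the 5 most alike in both regions. Where others are named, they were picked after their values were seen. The members and the gene lists were chosen with earlier results of these data known. Alternatives covered the surrogate variables, DESeq2 1.42.0, other filters and normalization, GC correction, a replicate block and leaving out libraries. The fit and the agreement were tested on simulated data.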

Additional observations from a re-analysis of the deposited data

Results flagged for a closer look

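In each group the highest and the lowest library were compared with their nearest neighbour by Dixon's ratio of that gap to the range of the group. A library stood apart if this ratio exceeded a critical value, 0.71 for 5 libraries and 0.625 for 6. Of 72 groups (9 genes, 4 groups, 2 regions) 8 held such a library. The genes were chosen with earlier results known and some vary together, so this count is a description and not a test. All 8 came from libraries numbered WT_SD replicate 6 or TG_HFD replicate 3.

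For WT_SD replicate 6, Fam107a was at 169 CPM in brainstem, where the other libraries of the group lay between 82.1 and 107, and at 536 CPM in hippocampus, where the others lay between 291 and 353. Tsc22d3 was at 61.2 CPM in hippocampus against 43.6 to 49.1 in the others. Nr3c2 was at 35.8 CPM in brainstem, below the 39.4 to 40.7 of the others. Over all genes this number had the highest correlation of deviations between the regions, 0.59.

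For TG_HFD replicate 3, Sgk1 was at 112 CPM in brainstem against 42.2 to 56.7 in the others, and Nr3c2 at 44.5 CPM against 36.6 to 39.1. Plin4 was at 13.5 CPM in brainstem, where the others lay between 4.70 and 7.69, and at 4.41 CPM in hippocampus, where they lay between 1.99 and 2.64. Over all genes the correlation between the regions for this number was -0.10. In brainstem TG_HFD replicate 3 had a GC slope of -0.3253, the lowest of all libraries. The other brainstem libraries lay between -0.2905 and 0.1822. Its equally numbered hippocampus library was at -0.04155. WT_SD replicate 6 had slopes of -0.1633 in brainstem and -0.09897 in hippocampus. What sets these libraries apart, and the part of GC content in it, was not tested.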

How the results depend on the processing

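No member was called in any of the 10 genotype and diet contrasts under any alternative, and 7 were called between the regions under each of 5 alternatives. With the replicate block, in which the title number is a term, 0 members were called in the genotype and diet contrasts and 7 between the regions. Whether an equal number marks a shared source within a region was not tested. Deviations of equally numbered libraries of different groups had r from -0.31 to 0.40 in brainstem (median 0.04, 10 of 26 pairs above 0.1). In hippocampus r ran from -0.15 to 0.41 (median 0.07, 15 of 36 above 0.1). The number of all genes called varied more, for TG_HFD/WT_HFD in hippocampus from 30 to 515 with 0 and 634 with 2 surrogate variables, and in brainstem from 7 to 3 with the replicate block and 143 without a filter. Leaving out 1 library gave 13 to 63 in hippocampus (13, 15 and 19 without TG_HFD replicates 8, 7 and 5, and 63 without WT_HFD replicate 8) and 3 to 12 in brainstem (3 without WT_HFD replicate 8, 4 without TG_HFD replicate 1, 11 without TG_HFD replicate 6 or WT_HFD replicate 4 and 12 without TG_HFD replicate 7).

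The hippocampal Fam107a estimate for TG_HFD/WT_HFD (-0.28) became 0.02 with 0 surrogate variables, with the 2 groups alone and with the replicate block without surrogate variables, 0.01 with 2 surrogate variables and with GC correction, and 0.03 with DESeq2 without surrogate variables. The brainstem Arrdc2 estimate for TG_HFD/WT_HFD (0.25) became -0.10 with 0 and -0.02 with 2 surrogate variables, -0.01 without a filter and -0.11 with DESeq2, the replicate block (both without surrogate variables) or the 2 groups alone. Sgk1 between regions (-0.01) became 0.01 with RLE or DESeq2 and 0.07 without a filter or with the replicate block. The cause of these shifts was not tested.

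Agreement between the regions kept its sign for 8 of 9 genes. Spearman's rho was 0.90 for Fam107a and 0.64 for Plin4. With GC correction r was 0.76 for Nr3c1 and 0.17 for Arrdc2. Without the 2 pairs farthest from the median in brainstem, r was 0.24 for Nr3c1, 0.26 for Fkbp5, 0.56 for Tsc22d3, 0.65 for Plin4 and 0.20 for Arrdc2. Leaving out 1 pair at a time gave 0.28 to 0.78 for Fkbp5, 0.89 to 0.98 for Fam107a, 0.60 to 0.81 for Plin4 and -0.33 to 0.05 for Cdkn1a. Without both WT_SD replicate 6 and TG_HFD replicate 3, an alternative chosen after seeing the data, as were the fits with DESeq2 or the replicate block without surrogate variables, r was 0.84 for Fam107a and 0.09 for Cdkn1a. Cdkn1a and Plin4 had mean counts of only 44.1 and 38.0 in hippocampus, and the part of depth in their values was not tested.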

Other observations

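Of the other glucocorticoid-responsive genes, Per1 had an r of 0.85 between the regions over the 17 equally numbered pairs, rank 22 of 12619 genes, Dusp1 one of 0.70 and Gadd45g one of 0.67. The 14 genes of that list tested in both regions had a median r of 0.43, and the 11 clock output genes one of 0.47, with Dbp at 0.65. The genes of local steroid supply (median -0.18, 4 genes) and the stress peptide genes (median -0.24, 4 genes) lay below the median of 0.20 over all genes. The genes next to Fam107a at the top of the ranking, named after their values were seen, were Tmem267, Msmo1 and Srp54c, each with an r of 0.95, and Sc5d with 0.94. Osbp2 with 0.94, Srp54b with 0.93, Srp54a with 0.92, and Slc44a1 and Gabra2 with 0.91 came after them. Msmo1 and Sc5d encode enzymes of cholesterol synthesis, and whether the top genes share a function was not tested. All of these values are descriptions over the same 17 pairs.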
